A study of Mus musculus with 6 samples.

Results

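The 44 cell cycle and DNA replication genes described here were chosen by name, 21 that act at the entry into and during DNA synthesis (G1/S) and 23 that act from late S phase through mitosis (G2/M), together with general markers of proliferating cells. Each was represented by its array probe with the highest mean signal. All 44 were well above background on all 6 arrays and were tested, among 25791 genes and unnamed probes in all. Expression was measured in total RNA of dispersed pancreatic islet cells, the mixed endocrine and other cells of the islets, from male C57Bl/6N mice. The exoNOD cells were cultured for 72 h with 50 µg/ml of exosomes, small vesicles that cells release, that T lymphocytes of the CD4+CD25- subset had shed into their medium (3 arrays). The T lymphocytes came from NOD mice, which develop diabetes through autoimmunity. The control cells were cultured for the same 72 h without exosomes (3 arrays), so the comparison does not set NOD exosomes against those of another strain. Islet and exosome preparations differed between the 3 experiments.

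Division begins when D cyclins with Cdk4 or Cdk6, and then E cyclins with Cdk2, phosphorylate the retinoblastoma protein and free the E2F factors, which turn on genes for nucleotide supply and replication. Cdc6 and Cdt1 load the Mcm2 to Mcm7 helicase on origins, a step called licensing. Later, cyclins A and B with Cdk1 and the Aurora and polo-like kinases drive mitosis, the spindle checkpoint holds back the anaphase-promoting complex until chromosomes are attached, and Foxm1 and the MuvB complex activate the genes of this phase. Adult beta cells divide rarely. In mouse islets Cdk4 and cyclin D2 are known to be needed for postnatal beta cell growth, and other cells in a dispersed islet culture, such as fibroblasts, can also divide.

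Genes of both groups carry known promoter elements, and 4 promoters are shown because they let the letters be seen beside the expression values. They are RefSeq sequences on GRCm38.p6, each running from 250 bases before to 50 bases after the annotated start. Capitals mark TTTGAA (the core of the cell cycle homology region, CHR), CCAAT, and TTTCGCGC or TTTGGCGC (E2F sites), searched on both strands. The first is that of Cdk1, the mitotic kinase, at chr10:69352863-69353162 on the minus strand. The next are those of Ccnb2, a B cyclin, at chr9:70421505-70421804 (minus strand) and of Plk1, the polo-like kinase, at chr7:122159185-122159484 (plus strand). The last is that of Mcm6, a helicase subunit, at chr1:128359656-128359955 (minus strand).
Cdk1: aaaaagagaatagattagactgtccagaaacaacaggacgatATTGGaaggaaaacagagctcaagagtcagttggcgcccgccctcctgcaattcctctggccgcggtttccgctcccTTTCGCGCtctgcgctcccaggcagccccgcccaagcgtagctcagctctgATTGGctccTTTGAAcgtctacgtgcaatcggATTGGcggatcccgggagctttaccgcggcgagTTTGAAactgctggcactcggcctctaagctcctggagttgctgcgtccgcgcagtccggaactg
Ccnb2: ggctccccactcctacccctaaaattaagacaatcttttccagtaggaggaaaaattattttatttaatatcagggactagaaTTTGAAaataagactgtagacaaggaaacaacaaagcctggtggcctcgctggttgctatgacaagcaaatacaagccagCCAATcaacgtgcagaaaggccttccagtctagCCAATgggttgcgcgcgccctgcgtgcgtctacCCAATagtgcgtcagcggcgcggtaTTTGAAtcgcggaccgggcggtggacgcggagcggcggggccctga
Plk1: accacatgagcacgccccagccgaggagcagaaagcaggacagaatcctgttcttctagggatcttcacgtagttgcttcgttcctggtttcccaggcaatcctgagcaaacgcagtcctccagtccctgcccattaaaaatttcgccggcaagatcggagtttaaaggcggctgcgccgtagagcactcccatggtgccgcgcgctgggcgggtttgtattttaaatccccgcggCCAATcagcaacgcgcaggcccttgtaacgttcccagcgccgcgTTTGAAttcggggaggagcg
Mcm6: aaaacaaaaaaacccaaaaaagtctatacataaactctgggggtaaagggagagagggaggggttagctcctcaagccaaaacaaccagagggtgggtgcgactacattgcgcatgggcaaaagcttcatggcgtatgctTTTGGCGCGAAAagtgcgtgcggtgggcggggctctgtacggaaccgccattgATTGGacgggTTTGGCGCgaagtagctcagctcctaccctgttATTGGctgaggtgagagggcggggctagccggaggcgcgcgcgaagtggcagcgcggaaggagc
The Cdk1 window held 2 CHR cores, beginning at −71 and −15 relative to the start, 3 CCAAT boxes and 1 E2F site. That of Ccnb2 held 3 CCAAT boxes, at −87, −54 and −21, with CHR cores on either side of them, and that of Plk1 held 1 CCAAT box and 1 CHR core. The Mcm6 window had no CHR core and 3 E2F matches, at −110, −106 and −47, the first pair overlapping each other. RefSeq promoters matched 35 of the 44 genes. The CHR core was present for 13 of 18 G2/M genes (72.2%) and 1 of 17 G1/S genes (5.88%), against 20.2% of all 27025 genes with a promoter of this length. The E2F letters were present for 5 of 17 G1/S genes (29.4%) and 1 of 18 G2/M genes (5.56%), against 0.929% of all genes, and CCAAT for 15 of 18 G2/M genes and 10 of 17 G1/S genes, against 41.1%. Different motifs overlapped in 1 of these promoters. A match describes the letters and does not show that a factor binds there.

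A level is the log2 signal of a gene less the 75th percentile of its array, so it can be negative and is compared only within a gene. Changes are exoNOD minus control on the log2 scale, with n = 3 arrays per group. Between 80.8% and 81.8% of transcript spots were well above background on exoNOD arrays and between 78.1% and 81.6% on control arrays, and 0 spots were saturated. The beta cell markers summed to between 1034 and 1047 times the 75th percentile signal in exoNOD cells and between 1059 and 1127 times in control cells. Arrays of equal replicate number deviated together from their group means, so they were taken as pairs, and each adjusted p from limma is given without and with the replicate number as a block. By scan time exoNOD 1 was read with the 3 controls, and exoNOD 2 and 3 in another scan that held no control. The scan and the exosomes therefore cannot be told apart in pairs 2 and 3, and only pair 1 lies within a scan.

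Most of the genes were higher in exoNOD cells, by a modest amount. The fitted change was above 0 for 40 of 44 genes (90.9%), 17 of 21 for G1/S and 23 of 23 for G2/M (12 and 22 when arrays were scaled by their median), against 55.8% of all genes tested. The median change was 0.26 for the G1/S genes, with a range from −0.20 to 0.56, and 0.38 for the G2/M genes, with a range from 0.13 to 1.02, while that of all genes was 0.038. These medians depended on single arrays: leaving out exoNOD 1 gave 0.17 for the G2/M genes and leaving out control 1 gave 0.72, and the G1/S median was 0.079 without control 2 and 0.41 without control 1. With normexp background correction, where the median of all genes was itself at 0.35, the G2/M median lay 0.21 above it and the G1/S median 0.083 below it. Without the block, 0 of 44 passed an adjusted p of 0.05 in limma, 5 (11.4%, below the 16.8% of all genes) had an unadjusted p under it (Ccne1, Cdk2, Rrm2, Tyms and Aurkb), and the lowest adjusted p was 0.146, for Rrm2. In that fit 27 of 25791 genes (0.105%) passed. With the replicate block, 12 of 44 rose (27.3%) and 0 fell, beside 7.38% of all genes that rose and 1.81% that fell. These were 2 of 21 G1/S genes (Ccne1 and Rrm2), or 9.52%, close to the 7.38% of all genes. The others were 10 of 23 G2/M genes, or 43.5% (Ccnb1, Ccnb2, Cdk1, Aurka, Aurkb, Plk1, Mad2l1, Kif20a, Tpx2 and Birc5). The G2/M genes varied together, with a median Pearson's r between genes of 0.96 over the 6 arrays. Counts of them are therefore not counts of separate observations. Of the 9 of these 12 with a promoter, 4 had a CHR core and 6 a CCAAT box. With the block but without pair 1, 24 of 44 passed (54.5%, against 16.3% of all genes), without pair 2, 0 did (1.85% of all genes), and without pair 3, 4 did (9.09%, close to the 6.76% of all genes). After quantile normalization 3 passed with the block (Birc5, Cdk1 and Rrm2), or 6.82%, close to the 4.87% of all genes. Below, "rose" is used of these 12, in the fit with the block. The difference in change between G1/S and G2/M genes was not tested.

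**Figure D1:**
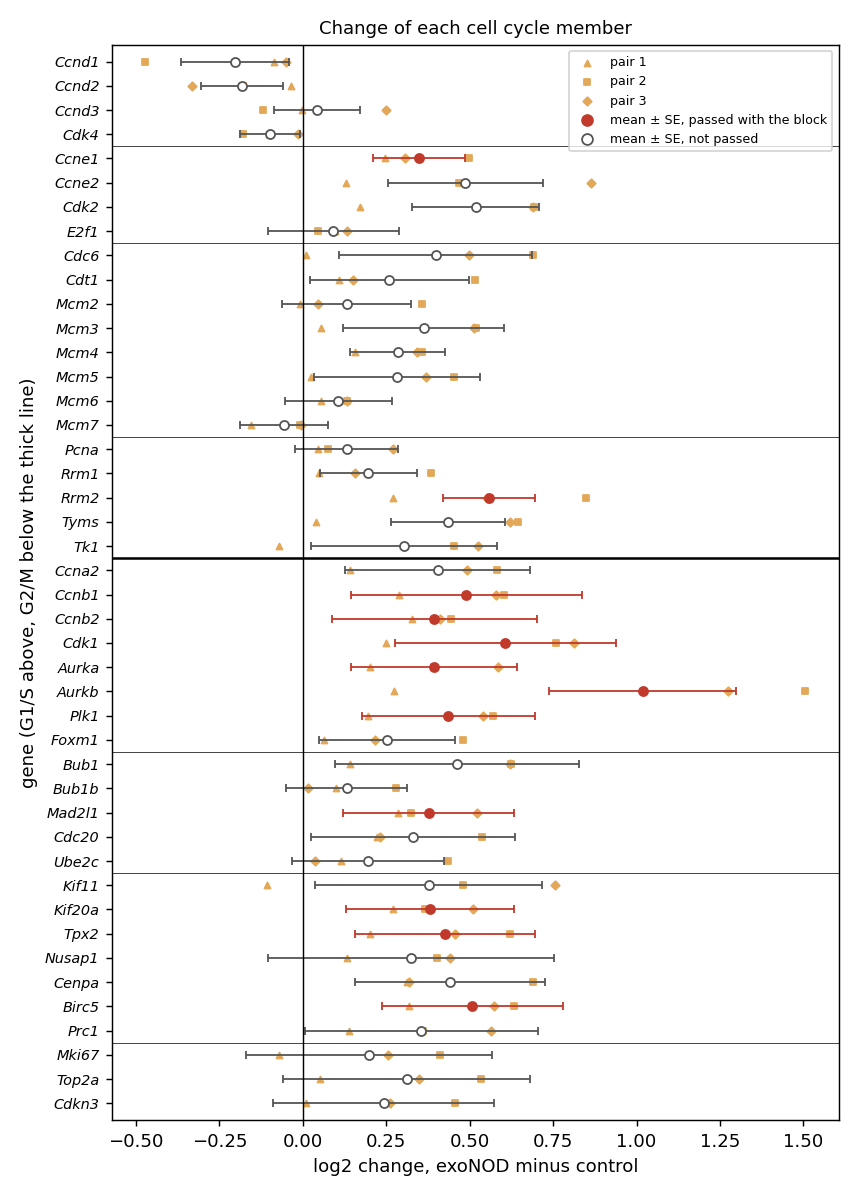
Change of each of the 44 genes, on the horizontal axis as exoNOD minus control on the log2 scale. Circles with bars are the mean and SE of the fit without the block (n = 3 arrays per group), filled where the gene passed with the block, and small markers are the 3 pairs of equal replicate number. The 23 G2/M genes all lie above 0, from 0.13 to 1.02, and the D cyclins and Cdk4 at the top lie at or below it, apart from Ccnd3 at 0.042.

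Replicate 1 was high in both groups, and for the G2/M genes by more than the groups differed. exoNOD 1 was the highest exoNOD array for 36 of 44 genes (81.8%, against 26.3% of all genes), and control 1 was the highest control for 40 of 44 (90.9%, against 28.9%). For the G2/M genes the median gap between exoNOD 1 and the mean of the other exoNOD arrays was 0.66, and that between control 1 and the other controls was 0.96. For the G1/S genes these medians were 0.21 and 0.41. Complete separation of the groups was therefore not frequent. All 3 exoNOD arrays were above all 3 controls for 4 of 44 genes (9.09%: Ccne1, Cdk2, Rrm2 and Aurkb), beside 14.8% of all genes, and all were below for 1 (Cdk4), beside 7.54%. Within pairs the direction was more even: 35 of 44 genes (79.5%), 14 of 21 for G1/S and 21 of 23 for G2/M, were higher in all 3 pairs, beside 29.5% of all genes.

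**Figure D2:**
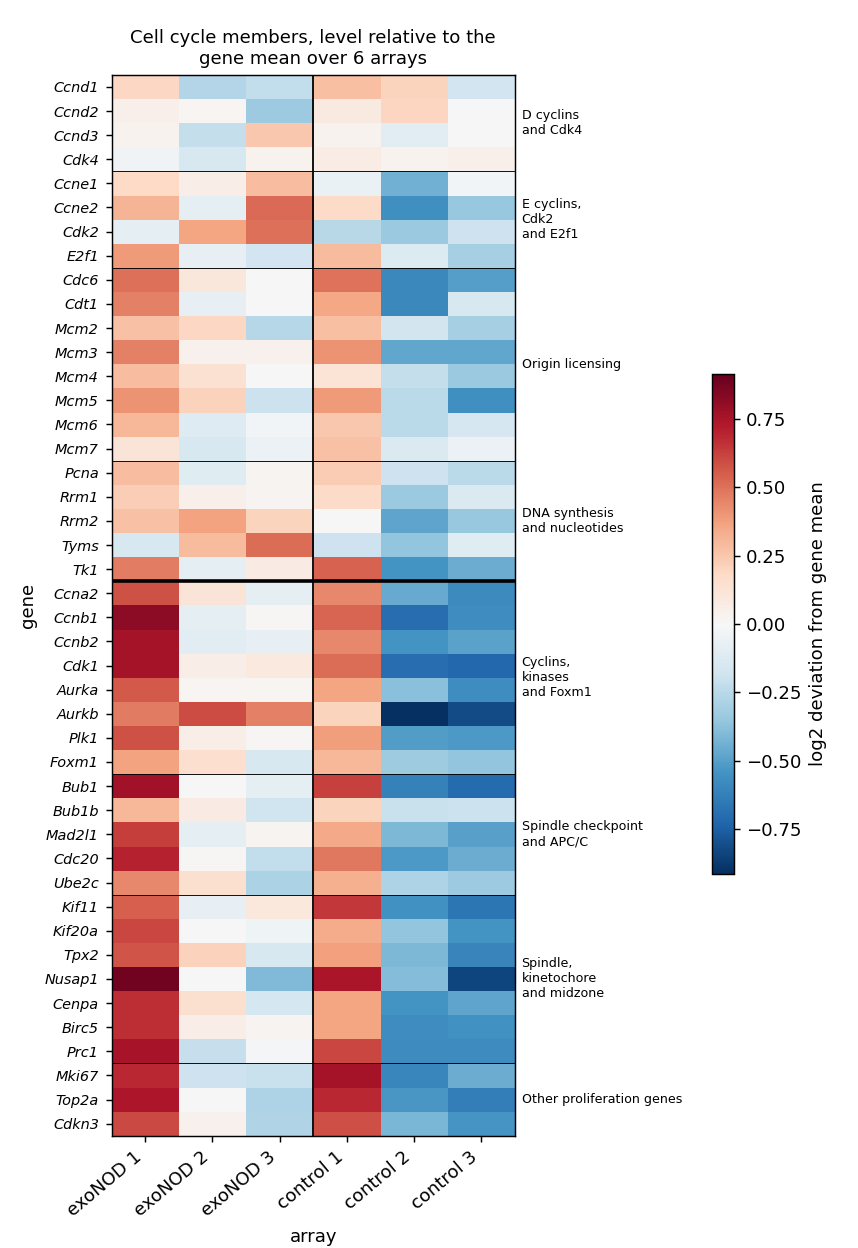
Level of the 44 genes (rows, ordered by role) on the 6 arrays (columns, exoNOD 1 to 3 and then control 1 to 3), as the log2 deviation from each gene's own mean over the arrays. For G2/M genes, below the thick line, the median deviation was 0.63, 0.016 and −0.080 on exoNOD 1, 2 and 3, and 0.44, −0.52 and −0.55 on control 1, 2 and 3.

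The size of the difference also varied between pairs. The median difference of the G2/M genes was 0.20 in pair 1, 0.48 in pair 2 and 0.49 in pair 3, and that of the G1/S genes was 0.047, 0.38 and 0.27, while that of all genes was 0.028, 0.068 and 0.023. exoNOD 1 was above control 1 for 14 of 21 G1/S genes (66.7%) and 21 of 23 G2/M genes (91.3%), against 55.6% of all genes. Pair 1 is the one read within a single scan. exoNOD 2 lay above both control 2 and control 3 for 23 of 23 G2/M genes, and exoNOD 3 did so for 21 of 23, against 46.0% and 44.7% of all genes. Both lay above control 1, however, for only 1 of 23, against 44.8% of all genes. Against all 3 controls of its own scan, exoNOD 1 was higher by a median of 0.82 for the G2/M genes and 0.35 for the G1/S genes, and by 0.019 for all genes. These values include the gap between replicate 1 and the others, which was 0.96 among the controls for the G2/M genes and 0.41 for the G1/S genes. Pair 1, which leaves that gap out, had medians of 0.20 and 0.047.

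**Figure D3:**
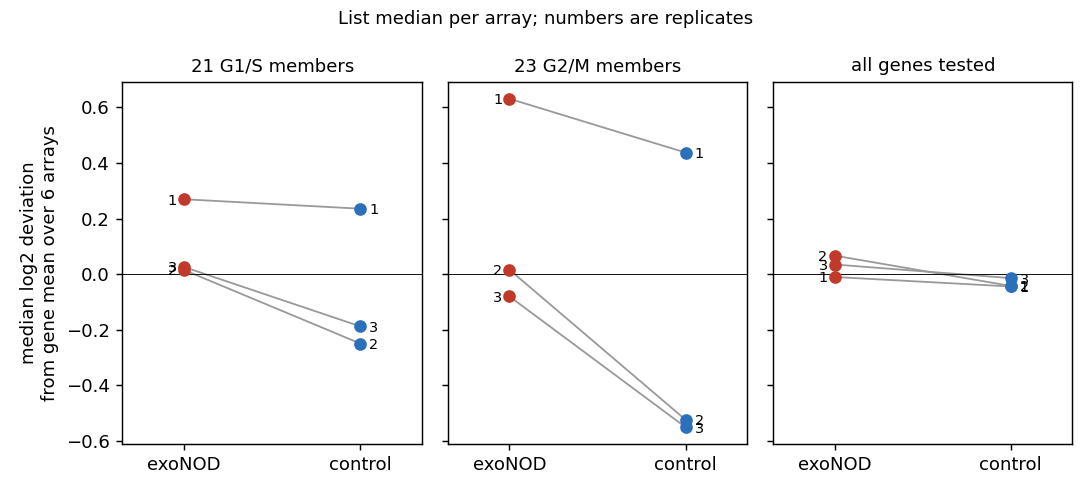
Median log2 deviation from the gene mean, on the vertical axis, of the gene lists on each array, with exoNOD left of control and the digits giving the replicate. exoNOD 1 and control 1 are the highest arrays of their groups for the G2/M genes, at 0.63 and 0.44, and each exoNOD array lies above the control of its own number.

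Of the D cyclins, which bind Cdk4 and Cdk6 to start the passage through G1, and Cdk4 itself, 3 of 4 genes had a change below 0. Ccnd2, which encodes cyclin D2, had 3.17, 3.13 and 2.78 in exoNOD cells, against 3.20, 3.31 and 3.12 in control cells. Its change was −0.18 ± 0.12 (SE; adjusted p in limma 0.473, and 0.209 with the block), with every pair below 0. Ccnd1 had 1.67, 1.22 and 1.27 in exoNOD cells and 1.76, 1.69 and 1.32 in control cells, a change of −0.20 ± 0.16 (adjusted p 0.539, 0.211 with the block) that was 0.086 with scan as a block, although pair 1, read within that scan, was at −0.085. For Ccnd3 the exoNOD arrays, at 1.67, 1.42 and 1.88, lay around the controls, at 1.67, 1.54 and 1.63. Cdk4, the partner kinase, had 3.75, 3.64 and 3.82 in exoNOD cells and 3.86, 3.82 and 3.84 in control cells, all exoNOD arrays below all controls, but by only 0.099 ± 0.09 (adjusted p 0.594, 0.475 with the block). The median change of these 4 genes was −0.14, and 0 of 4 passed in either fit.

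Of the next step in G1, Ccne1 rose. It encodes cyclin E1, the activator of Cdk2. Its level was 0.28, 0.15 and 0.37 in exoNOD cells, against 0.032, −0.35 and 0.067 in control cells, with no overlap. The means were 0.27 ± 0.11 in exoNOD cells and −0.083 ± 0.23 in control cells (SD, n = 3 each), a change of 0.35 ± 0.14 (SE), or 1.27-fold (adjusted p 0.267, and 0.0411 with the block). Ccne2 had −2.93, −3.33 and −2.72 in exoNOD cells and −3.06, −3.79 and −3.58 in control cells, a change of 0.49 ± 0.23 (0.0942 with the block). For Cdk2 the exoNOD arrays, at −4.12, −3.68 and −3.53, were all above the controls, at −4.29, −4.37 and −4.22, and the change of 0.52 ± 0.19 gave an adjusted p of 0.251, and 0.0958 with the block. Cdk2 was the dimmest of the 44 genes, with a mean signal of 54.4, and its change was 0.33 with quantile normalization. E2f1, which encodes the E2F factor released by these kinases, had −0.58, −1.05 and −1.14 in exoNOD cells and −0.68, −1.09 and −1.27 in control cells, so that its groups overlapped almost fully (change 0.091 ± 0.20).

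The 8 licensing genes had a median change of 0.27, and 0 of 8 passed in either fit. Mcm4, a helicase subunit, had 0.63, 0.49 and 0.36 in exoNOD cells and 0.48, 0.13 and 0.014 in control cells, a change of 0.28 ± 0.14 (adjusted p 0.344, 0.069 with the block). Mcm6, whose promoter is printed above, had 1.60, 1.18 and 1.28 in exoNOD cells and 1.55, 1.05 and 1.14 in control cells, a change of 0.11 ± 0.16. Each exoNOD array was above the control of its number, and replicate 1 was the highest in both groups. Mcm7, another subunit of the same complex, had 1.10, 0.85 and 0.93 in exoNOD cells and 1.26, 0.85 and 0.94 in control cells, so that the change was −0.056 ± 0.13 (0.087 with scan as a block, but −0.15 in pair 1). The other subunits and the loaders Cdc6 and Cdt1 had changes between 0.13 (Mcm2) and 0.40 (Cdc6). The lowest adjusted p among these with the block was 0.0636, for Mcm3 (0.36 ± 0.24).

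Among genes for DNA synthesis and its precursors, Rrm2 rose. It encodes the small, cell cycle regulated subunit of ribonucleotide reductase, which makes deoxyribonucleotides. Its level was 0.67, 0.76 and 0.60 in exoNOD cells, against 0.39, −0.086 and 0.052 in control cells, with no overlap. The means were 0.68 ± 0.081 in exoNOD cells and 0.12 ± 0.25 in control cells (SD, n = 3 each), a change of 0.56 ± 0.14 (SE), or 1.47-fold (adjusted p 0.146, and 0.014 with the block). The large subunit gene Rrm1 had 0.53, 0.35 and 0.33 in exoNOD cells and 0.48, −0.033 and 0.17 in control cells (0.20 ± 0.14, adjusted p with the block 0.202). Pcna, which encodes the polymerase clamp, had 2.51, 2.11 and 2.25 in exoNOD cells and 2.46, 2.04 and 1.98 in control cells (0.13 ± 0.15, adjusted p with the block 0.335). In Tk1, the thymidine kinase gene, exoNOD arrays at 0.02, −0.54 and −0.37 stood against controls at 0.091, −0.99 and −0.90. Pair 1 was thus near 0 or slightly negative (−0.07), while pairs 2 and 3 differed by 0.45 and 0.52. Tyms, the thymidylate synthase gene, had the same shape of pair differences (0.04, 0.65 and 0.62) and a change of 0.44 ± 0.17 (adjusted p with the block 0.0573).

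Of the mitotic cyclins, kinases and Foxm1, 6 of 8 rose (75%, beside 7.38% of all genes), and the median change of the 8 was 0.42. After quantile normalization Cdk1 alone of them passed with the block, and no member passed with the block without pair 2. Cdk1 had 0.29, −0.41 and −0.37 in exoNOD cells, against 0.042, −1.16 and −1.19 in control cells. The means were −0.16 ± 0.39 in exoNOD cells and −0.77 ± 0.70 in control cells (SD, n = 3 each), a change of 0.61 ± 0.33 (SE), or 1.52-fold (adjusted p 0.38, and 0.0133 with the block). Each exoNOD array was above the control of its number, yet control 1 was above exoNOD 2 and 3. Ccnb1 had −0.51, −1.42 and −1.32 in exoNOD cells and −0.80, −2.03 and −1.90 in control cells, a change of 0.49 ± 0.35 (adjusted p 0.489, and 0.0233 with the block). Ccnb2 had −0.38, −1.24 and −1.22 in exoNOD cells and −0.71, −1.69 and −1.63 in control cells, a change of 0.39 ± 0.31 (adjusted p 0.53, and 0.0355 with the block). The products of both genes activate Cdk1. The pair differences were 0.29, 0.60 and 0.58 for Ccnb1, lowest in pair 1, and 0.33, 0.45 and 0.41 for Ccnb2. Ccna2, the cyclin A2 gene, did not pass with the block (0.40 ± 0.28, adjusted p 0.0522).

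Aurkb, which encodes the kinase of the chromosomal passenger complex that corrects chromosome attachment, had the greatest change of the 44 genes. It was dim, with a mean signal of 82.0, while the median spot signals of the arrays lay between 112 and 140. Its level was −3.05, −2.94 and −3.07 in exoNOD cells, against −3.33, −4.44 and −4.34 in control cells, with no overlap. The change of 1.02 ± 0.28 is 2.03-fold (adjusted p 0.183, and 0.0212 with the block), and the pair differences were unequal, 0.27 in pair 1, 1.51 in pair 2 and 1.27 in pair 3. With the block and quantile normalization the change was 0.86 (adjusted p in limma 0.0642). Aurkb was also the only G2/M gene for which exoNOD 1 was not the highest exoNOD array. Birc5, which encodes survivin, another subunit of the same complex, had 0.46, −0.15 and −0.19 in exoNOD cells and 0.14, −0.78 and −0.77 in control cells. Its change was 0.51 ± 0.27, or 1.42-fold (adjusted p 0.37, and 0.0116 with the block, the lowest of the 44). Aurka, the spindle pole kinase gene, had −0.22, −0.76 and −0.76 in exoNOD cells and −0.42, −1.15 and −1.34 in control cells (0.39 ± 0.25, adjusted p with the block 0.0444). Plk1, whose kinase acts at centrosomes and kinetochores, had −0.27, −0.79 and −0.84 in exoNOD cells and −0.47, −1.36 and −1.38 in control cells (0.44 ± 0.26, adjusted p with the block 0.0339). In these 3 genes too, control 1 was above exoNOD 2 and 3. Foxm1, the transcription factor gene, had −0.27, −0.49 and −0.79 in exoNOD cells and −0.34, −0.97 and −1.0 in control cells (0.25 ± 0.20, adjusted p with the block 0.153).

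**Figure D4:**
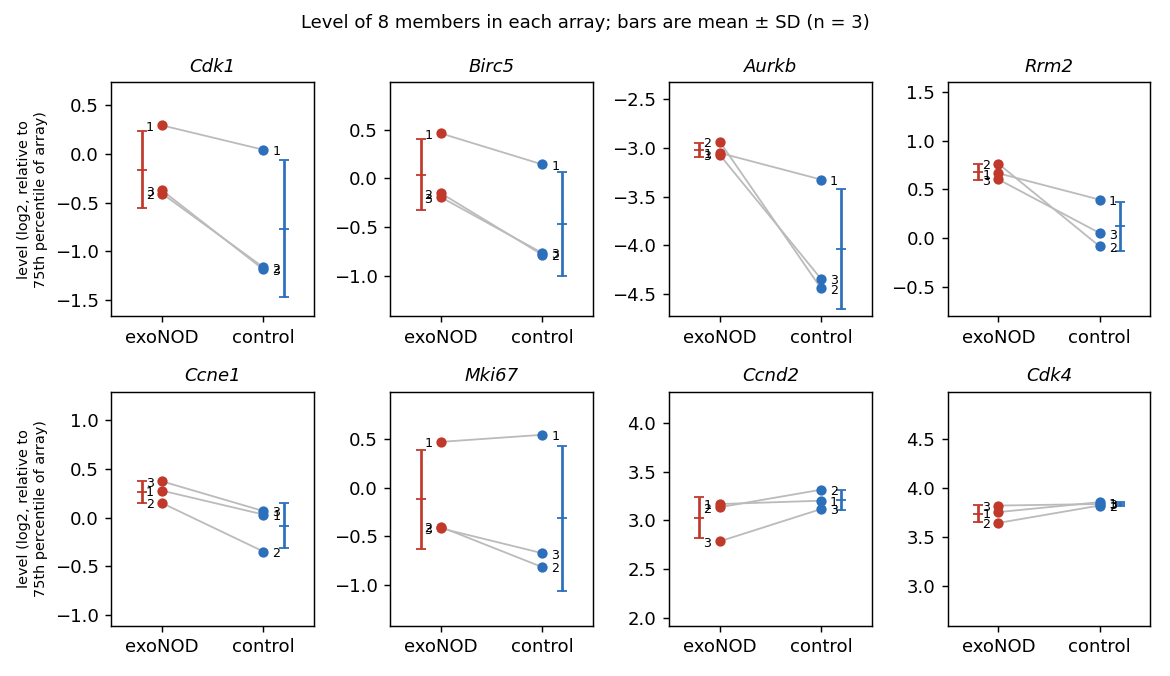
Level (log2, relative to the 75th percentile of the array) of 8 of the genes on each array, with exoNOD left of control and bars for the mean ± SD (n = 3). Rrm2, Ccne1 and Aurkb have all exoNOD arrays above all controls. In Cdk1, Birc5 and Mki67 control 1 lies above exoNOD 2 and 3, and in Cdk4 all exoNOD arrays lie below the controls.

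Of the 5 genes of the spindle checkpoint and the anaphase-promoting complex, 1 rose (20%, beside 7.38% of all genes). Mad2l1, which encodes the checkpoint protein Mad2, had 0.57, −0.15 and −0.038 in exoNOD cells and 0.28, −0.47 and −0.56 in control cells (0.38 ± 0.26, adjusted p 0.472, and 0.0322 with the block). Cdc20, which encodes the activator that Mad2 restrains, had 1.31, 0.61 and 0.38 in exoNOD cells and 1.09, 0.078 and 0.15 in control cells. Its change was 0.33 ± 0.31 (adjusted p with the block 0.0539). The checkpoint kinase gene Bub1 had a change of 0.46 ± 0.37 (adjusted p with the block 0.0662), its relative Bub1b of 0.13 ± 0.18, and Ube2c, the ubiquitin-conjugating enzyme gene of the complex, of 0.20 ± 0.23. All 5 were higher in every pair, beside 29.5% of all genes.

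Among 7 spindle, kinetochore and midzone genes, Birc5 (above), Kif20a and Tpx2 rose (42.9%, beside 7.38% of all genes), and the median change was 0.38. Kif20a, the gene of a kinesin needed for cytokinesis, had 0.15, −0.46 and −0.50 in exoNOD cells and −0.12, −0.82 and −1.0 in control cells (0.38 ± 0.25, adjusted p with the block 0.0344). Tpx2, which encodes the activator of Aurora A on spindles, had −0.92, −1.28 and −1.64 in exoNOD cells and −1.12, −1.90 and −2.10 in control cells (0.43 ± 0.27, adjusted p with the block 0.0471). Prc1, the gene of a midzone bundling protein, had 0.65, −0.32 and −0.12 in exoNOD cells and 0.51, −0.68 and −0.68 in control cells (0.35 ± 0.35, adjusted p with the block 0.0558). Cenpa, the centromeric histone gene, had a change of 0.44 ± 0.29 (0.0645) and Nusap1, a spindle protein gene, one of 0.32 ± 0.43 (0.118). For Kif11, the gene of the kinesin that separates spindle poles, pair 1 was at −0.11 and pairs 2 and 3 at 0.48 and 0.76.

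Mki67, which encodes the Ki-67 antigen used to stain dividing cells, did not pass. It had 0.47, −0.40 and −0.42 in exoNOD cells, against 0.54, −0.82 and −0.67 in control cells. The means were −0.12 ± 0.51 in exoNOD cells and −0.32 ± 0.75 in control cells (SD, n = 3 each), a change of 0.20 ± 0.37 (SE; adjusted p 0.808, and 0.256 with the block). The gap between replicate 1 and the other arrays was larger than the difference between groups, and control 1 was the highest of all 6 arrays. Top2a, which encodes the topoisomerase that separates sister chromatids, had −0.67, −1.41 and −1.69 in exoNOD cells and −0.72, −1.94 and −2.04 in control cells (0.31 ± 0.37, adjusted p with the block 0.122). Cdkn3, the gene of a phosphatase of Cdk2 and Cdk1, had a change of 0.24 ± 0.33. The genes outside the list whose profile over the 6 arrays was most like that of Mki67 were Racgap1, Arhgef39, Kif20b, Cdca5 and Ncaph, with Pearson's r between 0.990 and 0.998. With 2 high arrays and 4 low ones, such a value mostly describes replicate 1, so no test is given.

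A further 115 cell cycle genes were listed by role, of which 113 were tested. Without the block 0 of 113 passed (6, or 5.31%, at an unadjusted p under 0.05, against 16.8% of all genes). With the block 6 rose (5.31%, below the 7.38% of all genes) and 1 fell, so these genes as a list were not called more often than others. All 7 inhibitors of cyclin-dependent kinases had a change below 0, with a median of −0.20, while 55.8% of all genes were above 0. With quantile normalization 6 of 7 were below 0. With normexp 3 of 7 were, and the median was 0.054 for the 7 and 0.35 for all genes. Of the 7, 0 passed in either fit. Cdkn2b, which encodes p15, the inhibitor of Cdk4 and Cdk6, had 0.27, 0.15 and 0.18 in exoNOD cells and 0.49, 0.46 and 0.51 in control cells, with no overlap (−0.29 ± 0.096, adjusted p 0.23, and 0.0584 with the block). Cdkn1c had the largest change of the 7, at −0.38 ± 0.17 (adjusted p 0.302, and 0.139 with the block). Cdkn1b, the p27 gene, changed by −0.20 ± 0.11, Cdkn1a by −0.24 ± 0.15 and Cdkn2a by −0.19 ± 0.25. Cdkn2c and Cdkn2d lay at −0.017 and −0.01, so that the direction of those last genes is not distinguishable from 0. Among 18 genes of the pocket proteins, E2F factors and MuvB, E2f2 fell with the block. It had 0.27, −0.22 and −0.57 in exoNOD cells, against 0.60, 0.12 and −0.23 in control cells (−0.34 ± 0.25, adjusted p 0.514, and 0.0379 with the block), with pair differences of −0.33, −0.34 and −0.33.

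Of 38 further replication genes, 2 rose with the block (5.26%, below the 7.38% of all genes). Orc1, which encodes the largest subunit of the origin recognition complex that Cdc6 joins, had −4.14, −4.62 and −4.04 in exoNOD cells, against −5.13, −5.48 and −5.21 in control cells. These did not overlap (1.00 ± 0.22, adjusted p 0.101, and 0.0118 with the block). Orc1 was dim, at −4.04 or lower on every array. Uhrf1, which encodes a protein that carries DNA methylation through replication, changed by 0.51 ± 0.26 (adjusted p with the block 0.0384). Of 50 further mitosis genes tested, 41 were higher (82%, against 55.8% of all genes; 31 when scaled by the median), with a median change of 0.23. With the block 4 rose, at 8% near the share of all genes: Cks2, Cdca3, Cenpe and Hmgb2. Cks2, which encodes a small subunit of the Cdk1 complex, had −0.27, −1.11 and −0.82 in exoNOD cells and −0.59, −1.67 and −1.44 in control cells (0.50 ± 0.30, adjusted p with the block 0.0163).

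Markers of other cells that an islet culture can hold were read on the same arrays. In a bulk sample, fewer cells of a type and less RNA per cell cannot be told apart. The 7 fibroblast markers summed to 52.8, 56.0 and 74.7 times the 75th percentile signal on exoNOD 1, 2 and 3, and to 52.7, 41.3 and 62.7 times on control 1, 2 and 3. Each exoNOD sum was above that of the control of its number, with almost no gap in pair 1 and larger ones in pairs 2 and 3. Unlike the cell cycle genes, the sums were highest on replicate 3 in both groups. For 0 of 7 markers was exoNOD 1 the highest exoNOD array, and for 0 of 7 was control 1 the highest control, beside 26.3% and 28.9% of all genes. Most of each sum came from Col1a1, however, and 3 of 7 markers had a change below 0 (Col3a1 −0.16, Dcn −0.29 and Lum −0.25). Of the 7 markers Pdgfra rose with the block (change 1.23, adjusted p 0.0112), and 6 did not pass. Pdgfra was dim, at −3.21 or lower in exoNOD cells and −4.13 or lower in control cells. The duct markers summed to between 7.02 and 9.29 in exoNOD cells and between 4.51 and 6.72 in control cells, and the endothelial markers to between 7.95 and 8.59 in exoNOD cells and between 6.41 and 7.56 in control cells. Neither sum overlapped between the groups. This was not particular to them, as the beta and B lymphocyte sums did not overlap either. Nor did the alpha cell sums, at 394 to 401 in exoNOD cells and 421 to 438 in control cells. The delta, macrophage and acinar sums overlapped. Singly, all exoNOD arrays were above all controls for 0 of 5 duct and 1 of 6 endothelial markers, beside 14.8% of all genes. For 2 endothelial markers all were below, beside 7.54%. With the block 2 of 5 duct markers rose (Spp1 and Cftr), while Krt19 and Krt7 had changes below 0. Plvap, most of the endothelial sum, rose, and 2 of 6 endothelial markers fell (Cdh5 and Emcn). With the block 7.38% of all genes rose and 1.81% fell. The B lymphocyte markers were low, at 0.303 to 0.350 in exoNOD cells and 0.176 to 0.212 in control cells. With the block 2 of 4 rose, Cd79b and Ms4a1. Ms4a1 was above background on only 3 arrays and had −6.29, −6.38 and −6.70 in control cells, so its change compares signal with values near the floor. It passed the filter only through the exoNOD group, where it was high, so the filter favoured its rise. The T lymphocyte markers overlapped between the groups, at 14.1 to 18.4 in exoNOD cells and 14.0 to 18.9 in control cells, and most of the sum came from Cd3e. Of the 8 markers, 6 were above background on all 6 arrays, while Cd3d was so on 2 arrays and Cd3g on 0. Of the 6 tested, 5 had a change above 0 and Lck rose with the block (change 0.63, adjusted p 0.00303). Of the 8 beta cell markers, 5 fell with the block (Slc2a2, Mafa, Nkx6-1, Pdx1 and Ucn3), beside 1.81% of all genes. Ins1, Ins2 and Iapp, which made up most of the beta cell sums, changed by −0.12, −0.066 and −0.011 and did not pass. The part of any of these cells in the cell cycle values was not tested.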

How the data were processed

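Cy3-labelled cRNA made from total RNA was read on 1-colour Agilent mouse arrays, 3 per group. The deposited files hold output of Agilent Feature Extraction 11.0.1.1, per the file headers. The processed signal is an intensity that the authors' software background-subtracted within each array, per the file headers. The deposited spot flags are other values, 0 or 1, per the file headers. The authors' processed values (an alternative here) are on the log2 scale, cover 31766 of 39429 probes, and lie within a median absolute difference of 0.000489 of a quantile normalization, with column medians of 7.92.

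The log2 processed signal was centred on the 75th percentile of each array's transcript spots (signal 869 to 890 on exoNOD arrays and 812 to 883 on control arrays). Outlier spots (164 to 266 and 169 to 187) were left out, and spots of a probe were averaged. A probe was kept (31072) if every array of 1 group or of both had it well above background. RefSeq accessions named 27234 probes, and 12195 stayed under the probe's name. The probe with the highest mean signal stood for its gene (25791 tested, 10 lacking a value on an array). For 11 members, 16 other kept probes all changed with the sign of the chosen one. Limma 3.58.1 in R 4.3.3 (data.table version 1.17.8) compared the groups with a trended prior and Benjamini-Hochberg adjustment over all genes at 0.05, and was tested on simulated data. Members and lists were chosen with earlier results of these data known. Genes were named if they passed with the block, or, in each role, up to 3 further by mean level. Genes shown beyond this rule were picked with their values known.

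The labels number replicates alike in both groups but do not state that equal numbers share a preparation. Deviations from the group means correlated across genes at 0.365, 0.281 and 0.481 for equal numbers and from −0.341 to 0.0088 otherwise, so equal numbers were taken as pairs. Deviations from a group mean cancel within the group, so high values for equal numbers force low ones otherwise. The contrast between them is therefore partly fixed in advance. The pairing was also read from the same arrays that were then tested. Genes are not independent replicates, and so few arrays do not establish the pairing. p-values measure the spread between these arrays. The normexp alternative used median spot and background signals, as the files used here hold no mean spot signal. Further alternatives were other scalings, no filter, array weights, scan as a block, scan 1 alone, and leaving out each array or, chosen after seeing the data, each pair. The number of arrays limits the precision.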

Additional observations from a re-analysis of the deposited data

How the results depend on the processing

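The count of genes past the threshold in limma, 27 without the block, was 2370 with the replicate block, 1255 with the block and quantile normalization, 13 with median scaling, 161 with normexp, 309 with array weights, and 0 with no filter, with scan as a block and with scan 1 alone (4658, 932 and 1137 at an unadjusted p under 0.05). Leaving out 1 array gave 0 to 1323 genes: 1323 without exoNOD 1, 0 without exoNOD 2, control 1 or control 2 (3040, 2558 and 2438 unadjusted), 2 without exoNOD 3 and 78 without control 3. Among the 44 members, 0 without the block (5 unadjusted), the block gave 12, the block with quantile normalization 3 (Birc5, Cdk1 and Rrm2), and leaving out 1 array 0 to 1 (Tyms, without exoNOD 1, adjusted p 0.0472). With the block, leaving out pair 1, 2 or 3 gave 4191, 477 and 1742 genes and 24, 0 (17 unadjusted) and 4 members, the last being Aurkb, Birc5, Cdk1 and Rrm2, so the count depended on the pair left out.

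The median of all genes was 0.35 with normexp, where the G2/M list lay 0.21 above it and the G1/S list 0.083 below it, and −0.10 with median scaling (G1/S 0.12, G2/M 0.24). Signs turned for some small changes. Bub1b was at −0.0079 with quantile normalization with or without the block, −0.0095 with median scaling and −0.0084 with the authors' values. Median scaling also turned Ccnd3 (−0.099), E2f1 (−0.050), Mcm2 (−0.0094), Mcm6 (−0.034) and Pcna (−0.0094), and normexp Ccnd3 (−0.11), Mcm6 (−0.047) and Pcna (−0.025). Scan as a block, or scan 1 alone, which sets exoNOD 1 against all controls, turned Ccnd1 (0.086) and Mcm7 (0.087), while pair 1 of that scan was below 0 for both (−0.085 and −0.15). Leaving out 1 array gave ranges that crossed 0 for E2f1 (−0.080 to 0.26), Mcm6 (−0.017 to 0.26), Nusap1 (−0.034 to 0.78) and Mki67 (−0.095 to 0.63), each lowest without exoNOD 1 and highest without control 1, for Mcm7 (−0.14 to 0.065) and for Ccnd3 (−0.071 to 0.16). The cause was not tested.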
